A study of Homo sapiens with 40 samples.

Results

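Nuclear pore complexes are the channels through the nuclear envelope that carry proteins and RNA between nucleus and cytoplasm. The expression of 30 genes that encode their parts was followed in human diffuse large B-cell lymphoma lines given GSK126, an inhibitor of the histone methyltransferase EZH2. The members are a set of genes given by name, chosen with earlier results of these data known. Each was represented by the probe set that carried its symbol alone and had the highest mean over 40 arrays. All 30 members had such a probe set and were among the 15211 genes tested, of 19775 genes with a single-symbol probe set, and each lay above the array's median on all 40 arrays.

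The study treated 10 established lines with 500 nM GSK126 or with 0.1% DMSO as vehicle for 72 h, and put 2 arrays on each line and treatment. The labels give each line a growth IC50 for GSK126, the dose that lowers proliferation by a set amount. The 7 lines with mutant EZH2 are Pfeiffer (28 nM), WSU-DLCL2 (134 nM), KARPAS-422 (232 nM), SU-DHL-10 (448 nM), SU-DHL-6 (582 nM), DB (861 nM) and SU-DHL-4 (4828 nM). The 3 lines with wild type EZH2 are HT (516 nM), OCI-LY-19 (1019 nM) and Toledo (13786 nM). The dose used lay above the growth IC50 of the first 4 mutant lines and below that of every other line. A cell line is a tumour's descendant in culture, with no other tissue around it, and every genotype here is a set of lines that differ in much besides EZH2.

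Each pore is built from many copies of about the same set of proteins, the nucleoporins. An outer ring and an inner ring form the scaffold, which a few membrane proteins anchor in the nuclear envelope. The central channel is filled with proteins rich in phenylalanine-glycine repeats, through which transport receptors pass. Filaments on the cytoplasmic side release exported RNA, and a basket on the nuclear side meets chromatin and receives messenger RNA. Dividing cells must supply new pores for the growing nucleus, both after mitosis and during interphase, and several outer ring proteins also sit at kinetochores.

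All 40 arrays correlated best with another array of their own line. The correlation over the genes tested was 0.982 to 0.989 between replicates, 0.968 to 0.987 between the treatments of a line and 0.808 to 0.947 between lines. Of the B cell markers, CD79A, CD79B, PAX5 and CD22 were above the array's median on all 40 arrays and MS4A1 and BLK on 36. The summed linear signal of these 6 markers ran from 22588 to 55932 on GSK126 arrays and from 21043 to 52012 on DMSO arrays. Of the 5 T and NK cell markers, CD3E was above the median on 36 arrays, CD3D on 7, CD3G on 4, CD2 on 1 and NKG7 on 0, and their sum ran from 113 to 7623 on GSK126 arrays and from 67.7 to 9428 on DMSO arrays. Of the 5 stromal and epithelial markers, COL1A1 was above it on 40 arrays, COL1A2 on 14, KRT18 on 11, EPCAM on 4 and COL3A1 on 0, and their sum ran from 314 to 10641 on GSK126 arrays and from 210 to 13631 on DMSO arrays. Of the myeloid markers, CSF1R was above it on 11 arrays, LYZ on 2 and CD14 on 0, with a sum of 44.5 to 174 on GSK126 arrays and 27.7 to 214 on DMSO arrays. PECAM1 and VWF of endothelium and HBB of red cells were above it on 40, 2 and 39 arrays, with a sum of 189 to 539 on GSK126 arrays and 185 to 491 on DMSO arrays. The part of such differences in the results was not tested.

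The promoters of 3 members are shown because the results turn on them. NUP155 was called in the most lines, NUP160 had the largest change in 1 line, and NUP37 fell in mutant lines as a group. The RefSeq promoter table of build GRCh38.p14 holds 250 bases before to 50 after a gene's start, and 27 of the 30 members had an entry there. NUP155 lies on the minus strand at chr5:37371057-37371356, NUP37 on the minus strand at chr12:102120065-102120364, and NUP160 on the minus strand at chr11:47848301-47848600, the first of its 2 listed starts. Sequences run 5′ to 3′ along the gene, and capitals mark matches on either strand to the motifs searched.
NUP155: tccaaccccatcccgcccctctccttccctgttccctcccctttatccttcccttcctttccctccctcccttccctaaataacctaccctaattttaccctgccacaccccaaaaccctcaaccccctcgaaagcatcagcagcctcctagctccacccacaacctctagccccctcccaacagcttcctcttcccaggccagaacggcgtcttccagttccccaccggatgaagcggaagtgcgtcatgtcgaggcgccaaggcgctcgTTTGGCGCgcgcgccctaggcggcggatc
NUP37: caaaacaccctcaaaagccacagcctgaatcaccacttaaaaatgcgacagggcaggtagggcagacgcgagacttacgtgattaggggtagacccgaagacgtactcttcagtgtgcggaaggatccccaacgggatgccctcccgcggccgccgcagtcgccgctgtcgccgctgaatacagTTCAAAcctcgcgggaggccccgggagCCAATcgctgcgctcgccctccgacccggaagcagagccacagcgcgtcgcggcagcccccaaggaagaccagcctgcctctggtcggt
NUP160: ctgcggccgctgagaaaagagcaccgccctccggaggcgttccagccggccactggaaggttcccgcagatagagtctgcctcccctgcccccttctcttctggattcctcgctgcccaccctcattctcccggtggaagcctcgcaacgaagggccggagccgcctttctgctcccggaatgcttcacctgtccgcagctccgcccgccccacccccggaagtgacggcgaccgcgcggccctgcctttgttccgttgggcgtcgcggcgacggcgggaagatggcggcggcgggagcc

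The motifs were CCAAT, the NF-Y box; CACGTG, the E box; TTTGAA, the cell cycle homology region or CHR; and the E2F sites TTTGGCGC, TTTCCCGC, TTTCGCGC and TTTGCCGC. The capitals of the NUP155 promoter are TTTGGCGC, which begins 21 bases after the start. No other member's promoter held this E2F site, and 0.795% of the 27305 genes in the table did. The other E2F sites were in no member's promoter, against 1.98% of all genes for TTTCCCGC, 0.63% for TTTCGCGC and 0.725% for TTTGCCGC. Any of these E2F sites was found for 1 of 27 members (3.7%) and for 3.99% of all genes. The capitals of the NUP37 promoter are a CHR read on the opposite strand, 66 bases before the start, and an NF-Y box 39 bases before it. CCAAT was found for 11 of 27 members (40.7%) and for 39.7% of all genes. The CHR letters were found for 8 of 27 members (29.6%), namely NUP37, NUP93, NUP205, NUP35, NDC1, NUP98, NUP153 and NUP50, and for 18.2% of all genes. The E box stood in the promoters of NUP188 and NUP50, 7.41% of members against 8.77% of all genes. None of these letters overlap one another in the promoters shown, and the NUP160 promoter held no match. A match here is only a run of letters.

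Under GSK126 nuclear pore genes were called fallen mostly in KARPAS-422 (17 of 30), Pfeiffer (15) and WSU-DLCL2 (8), and few or none were called in the other lines. A member was called at a Benjamini-Hochberg adjusted p under 0.05 over all genes tested, from limma with the spread pooled over the 20 groups. Over 300 pairs of a member and a line, 54 were fallen (18%) and 3 were risen (1%), against 5.13% fallen and 7.55% risen over all pairs of a gene and a line. In these bulk samples less RNA per cell and fewer cells of a kind cannot be told apart.

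In Pfeiffer 15 of 30 members fell (50%) and 0 rose, where 9.93% of all genes fell and 14.6% rose. In WSU-DLCL2 8 members fell (26.7%) and 2 rose (6.67%), where 12.7% of all genes fell and 13.9% rose. In KARPAS-422 17 members fell (56.7%) and 0 rose, where 13.4% of all genes fell and 15.5% rose. These are the lines with the lowest growth IC50. In SU-DHL-10 4 members fell (13.3%) and 1 rose (3.33%), where 7.16% of all genes fell and 11% rose. In the wild type line HT 4 members fell and 0 rose, where 3% of all genes fell and 6.31% rose. In SU-DHL-6 4 members fell and 0 rose, where 3.56% of all genes fell and 7.42% rose. The members' share of calls downward was above that of all genes in each of these 6 lines, and their share of calls upward was below it. In DB and in SU-DHL-4 1 member fell, NUP155 in both, and 0 rose. Of all genes 0.618% fell and 2.5% rose in DB, and 0.454% fell and 2.14% rose in SU-DHL-4. In OCI-LY-19 limma called 0 members, with 3 at an unadjusted p under 0.05, where 0.44% of all genes fell and 1.97% rose. In Toledo it called 0 members, with 1 at an unadjusted p under 0.05, where 0.0263% of all genes fell and 0.138% rose. These counts depend on how arrays are scaled. With arrays set to equal medians, the members called were 22 in KARPAS-422, 20 each in Pfeiffer and WSU-DLCL2, 17 each in SU-DHL-6 and SU-DHL-10, 2 in HT and 0 in DB and SU-DHL-4, all of them fallen. That setting also moved the median of all genes, to -0.17 in SU-DHL-10, -0.16 in WSU-DLCL2 and -0.14 in SU-DHL-6 and KARPAS-422. It became -0.07 in Pfeiffer and 0.04 in DB. The share of all genes called under equal medians is not given here.

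The median log2 change of the 30 members, GSK126 minus DMSO, was lowest in KARPAS-422 (-0.27) and Pfeiffer (-0.25), followed by WSU-DLCL2 (-0.15), SU-DHL-6 (-0.12), HT (-0.11) and SU-DHL-10 (-0.10). It was -0.07 in OCI-LY-19, -0.05 in DB, -0.04 in SU-DHL-4 and -0.0045 in Toledo. Over all genes tested the median lay between -0.0018 in DB and 0.07 in WSU-DLCL2, and in every line the members' median was below it. With quantile normalization this order turned in Toledo, where the members' median was 0.016 and that of all genes 0.012. When all probe sets of a gene were averaged, the median of the members was lowest in Pfeiffer (-0.27), while KARPAS-422 had -0.15, HT -0.11, WSU-DLCL2 -0.10 and SU-DHL-10 -0.01. Of the 30 members 27 were below 0 in Pfeiffer, 28 in KARPAS-422, 28 in HT and 27 in OCI-LY-19. The number was 24 in SU-DHL-6, 23 in WSU-DLCL2, 21 in DB, 19 in SU-DHL-10, 18 in SU-DHL-4 and 15 in Toledo. Of all genes the share below 0 lay between 42.1% in WSU-DLCL2 and 50.4% in DB, with 43.5% in Toledo.

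**Figure D1:**
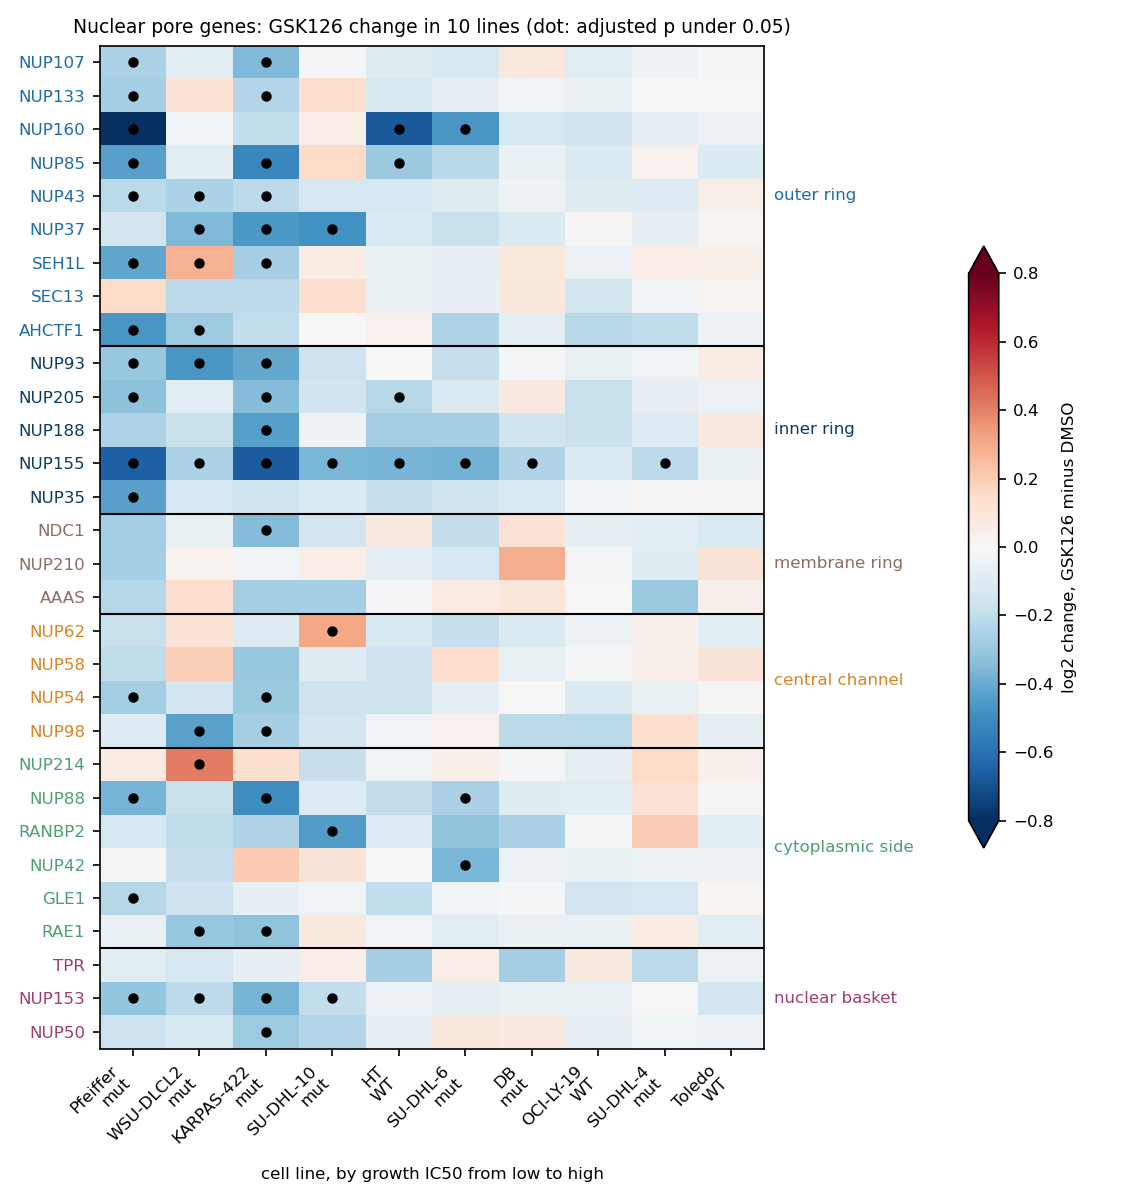
Log2 change of each of the 30 members (rows, by structural part) in each of the 10 lines (columns, by growth IC50 from low to high, with mut for mutant and WT for wild type EZH2), GSK126 minus DMSO, as colour from blue for lower to red for higher under GSK126. A dot marks an adjusted p under 0.05. The 57 dots lie mostly in Pfeiffer, KARPAS-422 and WSU-DLCL2, and NUP155 has 8 of them.

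Genes of the replicative helicase, which unwinds DNA in S phase, with MCM10 counted among them, serve as a measure of proliferation. Of 12 such genes 12 fell in Pfeiffer, 11 in KARPAS-422, 10 in WSU-DLCL2, 5 in HT, 3 in SU-DHL-10 and 1 each in SU-DHL-6 and SU-DHL-4, and 0 fell in DB, OCI-LY-19 and Toledo. Their median log2 change was -0.86 in Pfeiffer, -0.69 in KARPAS-422, -0.34 in WSU-DLCL2 and -0.24 in HT. It lay between -0.15 and 0.02 in the other 6 lines. The median change of the members was smaller in size than that of the helicase genes in the 4 lines first named. Over the 10 lines the members' medians correlated with those of the helicase genes (Pearson 0.949, Spearman 0.903). They correlated about as closely with the medians of the other nuclear transport genes described below (0.934 and 0.952). With log10 of the growth IC50 the correlations were 0.853 and 0.903. The part of any of these in the members' fall was not tested.

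**Figure D2:**
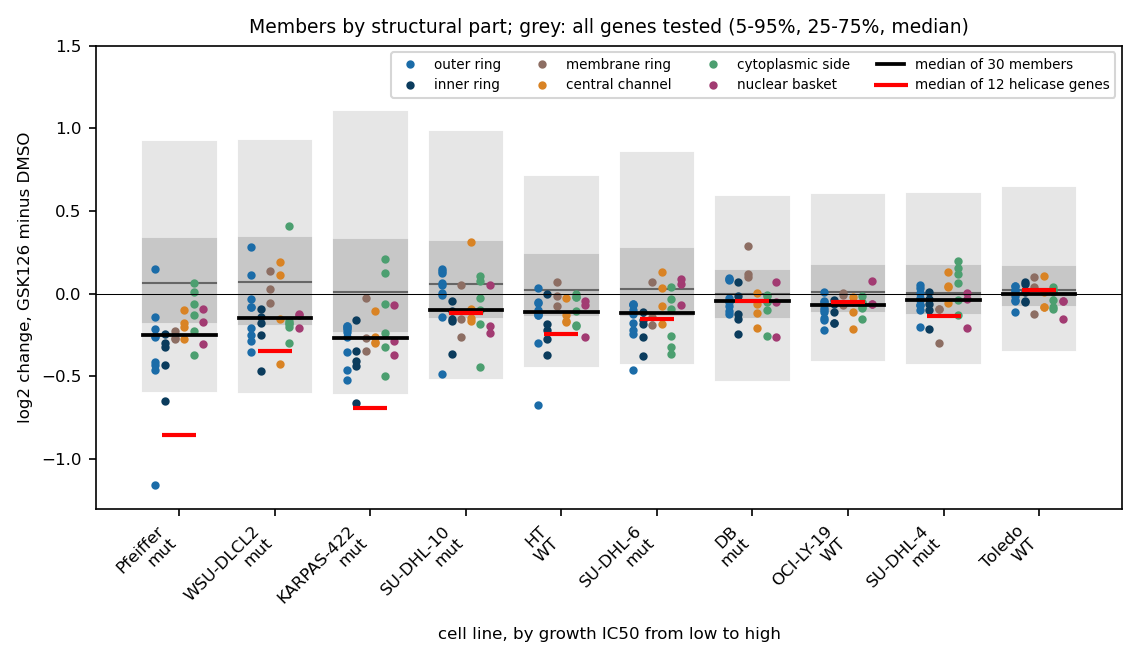
Log2 change of each member (points, coloured by structural part) in each line, GSK126 minus DMSO, with the median of the 30 members (black bar) and of 12 replicative helicase genes (red dash). Grey boxes give the 5th to 95th and 25th to 75th percentiles of all 15211 genes tested and the grey line their median. The members' median is lowest in KARPAS-422 (-0.27) and Pfeiffer (-0.25) and nearest 0 in Toledo.

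The scaffold, which has 14 of the 30 members, held most of the calls. Of 140 pairs of a scaffold gene and a line, 36 were fallen (25.7%) and 1 was risen. Over all pairs of a gene and a line, 5.13% were fallen and 7.55% were risen. The inner ring had 16 fallen of 50 (32%) and the outer ring 20 of 90 (22.2%). The nuclear basket had 5 fallen of 30 (16.7%), all of them but 1 in NUP153, the cytoplasmic side 8 of 60 (13.3%) with 1 risen, and the central channel 4 of 40 (10%) with 1 risen. In the membrane ring and its partner AAAS, 1 of 30 pairs was fallen (3.33%). This share rests on the brighter probe set of NDC1, as the other fell in KARPAS-422, Pfeiffer, WSU-DLCL2, SU-DHL-10 and SU-DHL-6. The shares of the other parts likewise rest on the brightest probe sets. By median log2 change, the scaffold stood at -0.31 in Pfeiffer and -0.31 in KARPAS-422, the basket at -0.17 and -0.29, and the cytoplasmic side at -0.10 and -0.15. In Toledo these medians were 0.01 for the scaffold, -0.05 for the basket and -0.02 for the cytoplasmic side. The parts hold few genes each, 1 gene accounts for 8 of the 16 inner ring calls, and the difference between parts was not tested.

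NUP155, a beta-propeller protein of the inner ring that binds the membrane, was called in more lines than any other member, and it has a single probe set. Values below are log2 of the scaled signal plus a pseudocount of 17.72. In Pfeiffer NUP155 read 10.26 and 10.30 on the GSK126 arrays, against 10.96 and 10.91 on the DMSO arrays. In KARPAS-422 it read 10.40 and 10.47 under GSK126 and 11.13 and 11.07 under DMSO. Its signal fell by 36.4% in Pfeiffer (log2 change -0.65, SE 0.056, adjusted p = 6.06e-10) and fell by 36.9% in KARPAS-422 (-0.66, adjusted p = 2.08e-10), the largest falls it had. NUP155 read 9.91 and 9.95 under GSK126 and 10.19 and 10.17 under DMSO in WSU-DLCL2. It read 10.78 and 10.79 under GSK126 and 11.15 and 11.16 under DMSO in SU-DHL-10. In the wild type line HT it read 10.73 and 10.85 under GSK126, against 11.13 and 11.18 under DMSO. In all of these lines both GSK126 arrays lay below both DMSO arrays. The log2 change was -0.25 in WSU-DLCL2 (adjusted p = 0.000999), -0.37 in SU-DHL-10 (adjusted p = 1.73e-05) and -0.37 in HT (adjusted p = 3.48e-05).

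In SU-DHL-6 NUP155 read 10.36 and 10.28 under GSK126, against 10.68 and 10.71 under DMSO (log2 change -0.38, adjusted p = 2.22e-05), a call that was lost when this line was fitted alone. In DB it read 10.86 and 10.85 under GSK126 and 11.11 and 11.09 under DMSO (-0.24, adjusted p = 0.00966). In SU-DHL-4 it read 9.94 and 9.96 under GSK126 and 10.15 and 10.17 under DMSO (-0.21, adjusted p = 0.033). The arrays of these lines do not overlap either, but in DB and in SU-DHL-4 the call was lost without any 1 of the line's 4 arrays, with the line fitted alone and with arrays set to equal medians. OCI-LY-19 read 10.09 and 9.95 under GSK126 and 10.12 and 10.14 under DMSO, and Toledo 10.95 and 10.95 under GSK126 and 11.01 and 10.99 under DMSO. Neither wild type line was called, at log2 changes of -0.11 and -0.05. NUP155 was thus below 0 in 10 of 10 lines, and its change differed between the lines (moderated F test in limma, adjusted p = 1.55e-06), as did that of 38.8% of all genes.

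NUP160, which with NUP107, NUP133 and NUP85 builds the Y-shaped unit of the outer ring, had the largest change of any member in 1 line. In Pfeiffer it read 9.46 and 9.84 under GSK126, against 10.81 and 10.81 under DMSO, and so fell by 55.2% (log2 change -1.16, SE 0.15, adjusted p = 8.11e-07). In HT it read 10.37 and 10.49 under GSK126, against 11.02 and 11.18 under DMSO (-0.67, adjusted p = 0.0029). In SU-DHL-6 it read 10.20 and 10.34 under GSK126, against 10.61 and 10.85 under DMSO (-0.46, adjusted p = 0.0407). Treated and vehicle arrays did not overlap in these lines, although the call in SU-DHL-6 was lost without any 1 of its arrays and the call in HT without DMSO replicate 2. In the other 7 lines its log2 change lay between -0.19 in KARPAS-422 and 0.05 in SU-DHL-10. A second probe set of NUP160 gave -0.70 in Pfeiffer (adjusted p = 8.85e-05) and -0.44 in KARPAS-422 (adjusted p = 0.00757), and 0.35 in WSU-DLCL2 (adjusted p = 0.0362), where the brighter one gave -0.03. The dimmest probe set gave -0.47 in Pfeiffer, not called. The probe sets of NUP160 thus read lower together in Pfeiffer and not in WSU-DLCL2.

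**Figure D3:**
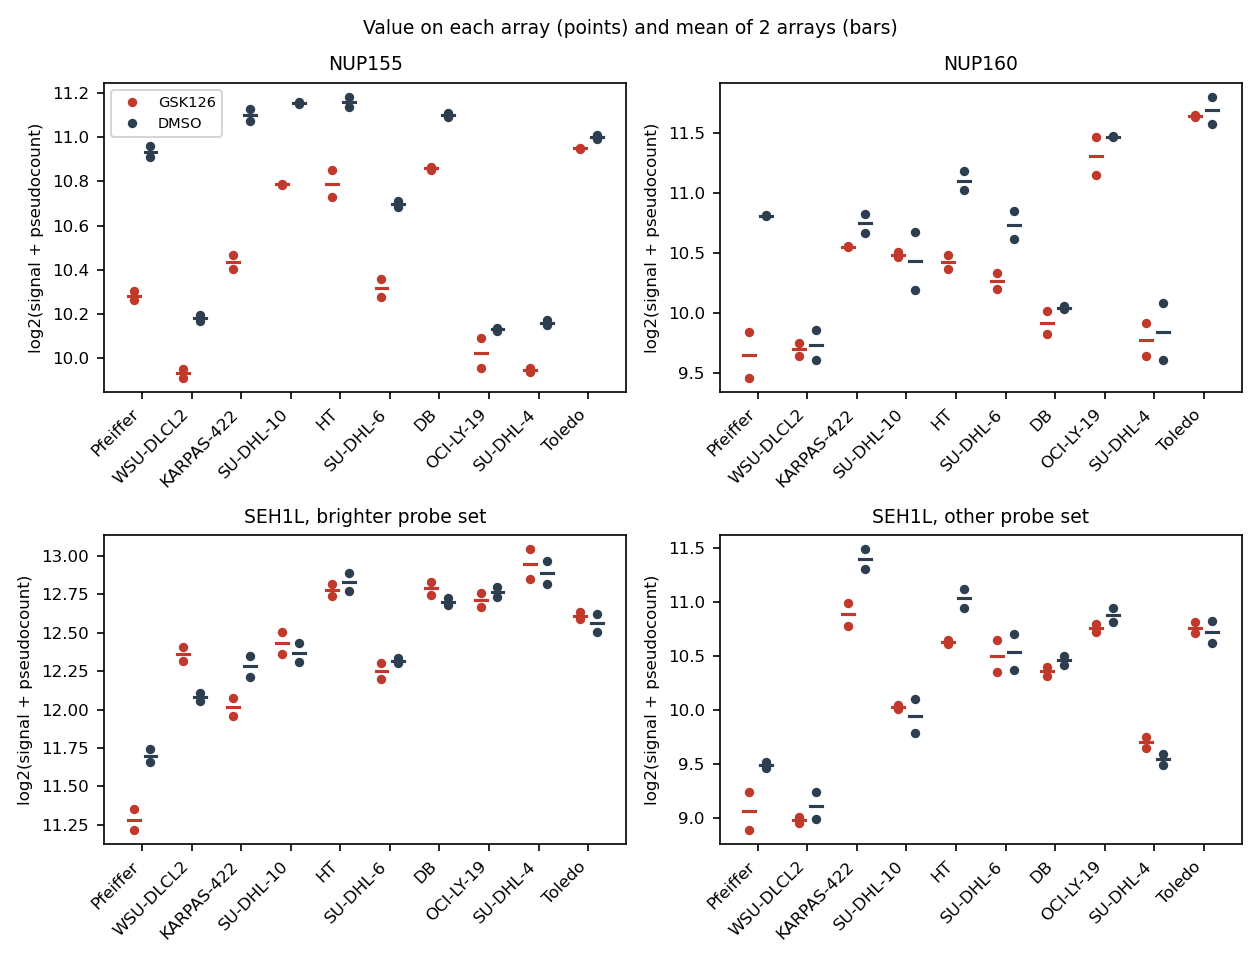
Value of NUP155, NUP160 and the brighter and other probe set of SEH1L on each array (points, log2 of signal plus pseudocount) and mean of the 2 arrays (bars), with GSK126 in red left of DMSO in dark blue, in 10 lines by growth IC50 from low to high. The mean of NUP155 is lower under GSK126 in every line and most of all in Pfeiffer and KARPAS-422. In WSU-DLCL2 SEH1L is higher under GSK126 by its brighter probe set (log2 change 0.28) and not by the other (-0.14).

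Among the other outer ring genes, NUP37 of the vertebrate Y complex fell in WSU-DLCL2, KARPAS-422 and SU-DHL-10. In SU-DHL-10 it read 12.08 and 11.77 under GSK126, against 12.54 and 12.28 under DMSO, the line's largest fall among the members (log2 change -0.49, adjusted p = 2.84e-05). In KARPAS-422 it changed by -0.46 and in WSU-DLCL2 by -0.36 on the same scale. The other probe set of NUP37 read 0.05 in WSU-DLCL2, not called. That set fell in Pfeiffer (-0.48, adjusted p = 0.0256), where the brighter one was not called (-0.14). NUP85 fell in Pfeiffer (-0.43), in KARPAS-422 (-0.52, adjusted p = 0.000101) and in HT (-0.30, adjusted p = 0.0468). The HT call of NUP85 was lost without any 1 of the 4 arrays and under pseudocount 1, quantile normalization and equal medians. NUP107 fell in Pfeiffer (-0.25) and KARPAS-422 (-0.36), and NUP133 fell in the same lines (-0.27 and -0.24), its other probe set reading 0.06 in KARPAS-422, not called. NUP43, a small propeller protein of the Y complex, fell in Pfeiffer (-0.21), WSU-DLCL2 (-0.25) and KARPAS-422 (-0.21), where its other probe set read 0.06, not called. AHCTF1, the ELYS protein that brings Y complexes to chromatin after mitosis, fell in Pfeiffer (-0.46, adjusted p = 0.000551) and in WSU-DLCL2 (-0.29, adjusted p = 0.0245), and a second probe set also fell in both lines (-0.43 and -0.62). SEC13, which also coats vesicles of the secretory pathway, was called in 0 of 10 lines, with log2 changes from -0.21 to 0.15.

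SEH1L, shared by the Y complex and the GATOR complex of nutrient sensing, was the member called in opposite directions. In Pfeiffer it read 11.22 and 11.35 under GSK126, against 11.66 and 11.74 under DMSO (log2 change -0.42, adjusted p = 0.000109). In KARPAS-422 it read 11.96 and 12.07 under GSK126, against 12.21 and 12.35 under DMSO (-0.27, adjusted p = 0.00742). In WSU-DLCL2 it read 12.32 and 12.41 under GSK126, against 12.05 and 12.11 under DMSO (0.28, adjusted p = 0.00528). The arrays of the treatments did not overlap in any of the 3 lines. The other probe set of SEH1L fell in Pfeiffer (-0.42), KARPAS-422 (-0.51) and HT (-0.41, adjusted p = 0.0484) and read -0.14 in WSU-DLCL2, not called. The rise in WSU-DLCL2 was 0.03 with arrays set to equal medians, and its call was then lost, as it was without DMSO replicate 1 or without GSK126 replicate 2. The KARPAS-422 call was lost with quantile normalization, and when DMSO replicate 2 or GSK126 replicate 1 was left out.

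In the inner ring, NUP93, which links the scaffold to the channel, fell in Pfeiffer (log2 change -0.30), WSU-DLCL2 (-0.47) and KARPAS-422 (-0.41). In WSU-DLCL2 it read 10.41 and 10.17 under GSK126, against 10.82 and 10.70 under DMSO (adjusted p = 0.00129), the largest fall among the members there, and the call was lost without GSK126 replicate 2. NUP205, a large solenoid protein bound to NUP93, fell in Pfeiffer (-0.33), KARPAS-422 (-0.35) and HT (-0.22), while its other probe set read 0.28, 0.23 and 0.11 in these lines and was not called. NUP188, the relative of NUP205, fell in KARPAS-422 (-0.44), where its other probe sets read 0.24 and -0.02, not called, and the average of its sets was -0.07, not called. NUP35, which bends membranes, fell in Pfeiffer, with 11.44 and 11.36 under GSK126 and 11.97 and 11.69 under DMSO (-0.43, adjusted p = 0.000287).

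Of the membrane ring genes, NDC1, a membrane protein needed to insert pores, was called in KARPAS-422 alone (log2 change -0.35). Its other probe set, also above the median on all 40 arrays, fell in KARPAS-422 (-0.70, adjusted p = 2.02e-11), Pfeiffer (-0.57), WSU-DLCL2 (-0.34), SU-DHL-10 (-0.29) and SU-DHL-6 (-0.29). The count for this gene therefore rests on which probe set is read. NUP210, the glycoprotein of the pore membrane, and AAAS, the ALADIN protein that NDC1 holds at the pore, were called in no line, at log2 changes of -0.27 to 0.29 and of -0.30 to 0.14. A second probe set of NUP210 fell in Pfeiffer (-0.39, adjusted p = 0.00966).

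In the central channel, NUP98, known from fusion genes in leukaemia, fell in WSU-DLCL2 with 10.73 and 10.85 under GSK126, against 11.23 and 11.19 under DMSO (log2 change -0.43, adjusted p = 2.71e-05), and in KARPAS-422 (-0.26). NUP54 fell in Pfeiffer (-0.28) and KARPAS-422 (-0.30) by its brightest probe set. In KARPAS-422 another set read 0.81, not called, and the average of its sets turned to 0.11. In Pfeiffer the average was -0.44, and neither average was called. NUP62, the partner of NUP54 and NUP58 in the channel, rose in SU-DHL-10, with 12.75 and 12.70 under GSK126 and 12.37 and 12.45 under DMSO (0.31, adjusted p = 0.00843). Its other probe sets read 0.27 and 0.42 there, not called, and 1 of these rose in WSU-DLCL2 (0.57, adjusted p = 0.001) and fell in Pfeiffer (-0.35, adjusted p = 0.0421). In SU-DHL-10, with arrays set to equal medians the rise was 0.05 and was lost, as it was without DMSO replicate 1 or GSK126 replicate 1. NUP58 was called in no line, between -0.30 and 0.19, whereas its other probe sets fell in Pfeiffer (-0.39 and -0.91) and 1 of them in SU-DHL-10 (-0.60).

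On the cytoplasmic side, NUP88, which holds NUP214 at the pore, fell in Pfeiffer (log2 change -0.37), KARPAS-422 (-0.50) and SU-DHL-6 (-0.26). In KARPAS-422 it read 11.93 and 11.73 under GSK126, against 12.24 and 12.41 under DMSO (adjusted p = 5.94e-06). NUP214 itself, which binds the export receptor XPO1, moved the other way in WSU-DLCL2, the largest rise of any member in 1 line. It read 9.23 and 9.32 under GSK126, against 8.69 and 9.04 under DMSO, and so was higher by 33% (0.41, SE 0.13, adjusted p = 0.0172). Both treated arrays lay above both vehicle arrays. A second probe set of NUP214 also rose there (0.61, adjusted p = 0.00891) and the other read -0.38, not called. The call was lost without DMSO replicate 1 or GSK126 replicate 2, and with equal medians the rise was 0.17 and not called. In the other lines NUP214 changed by between -0.18 in SU-DHL-10 and 0.16 in SU-DHL-4.

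RANBP2, the giant filament protein that binds Ran and attaches SUMO, fell in SU-DHL-10, with 11.38 and 11.31 under GSK126 and 12.03 and 11.55 under DMSO (log2 change -0.45, adjusted p = 0.045). The call was lost without DMSO replicate 1, where the change was -0.21, and 1 other probe set fell in that line (-0.41, adjusted p = 0.0125). Other probe sets of RANBP2 rose in Pfeiffer (0.23, adjusted p = 0.0176) and fell in KARPAS-422 (-0.26), WSU-DLCL2 (-0.24) and SU-DHL-6 (-0.41, adjusted p = 0.0229), where the brightest was not called. RANBP2 has near-identical copies in the RGPD gene family, which its probes may not tell apart. NUP42, the partner of GLE1, fell in SU-DHL-6, with 10.04 and 10.11 under GSK126 and 10.49 and 10.40 under DMSO (-0.36, adjusted p = 0.0262), a call lost without any 1 of the 4 arrays. GLE1, which activates the RNA helicase DDX19 at the filaments, fell in Pfeiffer (-0.23) by its brightest probe set and by another (-0.47). RAE1, an RNA export factor bound to NUP98, fell in WSU-DLCL2 (-0.30) and KARPAS-422 (-0.32), and another of its probe sets fell in both lines (-0.25 and -0.41).

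In the nuclear basket, NUP153, which anchors the basket to the nuclear ring, fell in 4 lines: Pfeiffer (log2 change -0.31), WSU-DLCL2 (-0.21), KARPAS-422 (-0.37) and SU-DHL-10 (-0.20). In KARPAS-422 it read 12.12 and 12.23 under GSK126, against 12.52 and 12.56 under DMSO (adjusted p = 0.000126), while its other probe sets read 0.19 and 0.23, not called. One of these fell in WSU-DLCL2 (-0.34), SU-DHL-10 (-0.32) and HT (-0.37), and the other read 0.42 in WSU-DLCL2, not called. The average of its sets was called in none of the 4 lines, at 0.017 in KARPAS-422 and -0.04 in WSU-DLCL2, and the SU-DHL-10 call was also lost with quantile normalization, no filter, the line fitted alone and the replicate block. NUP50, which helps importins release cargo, fell in KARPAS-422 (-0.29), where 2 others of its 6 probe sets also fell (-0.26 and -0.22) and the rest read 0.65, 0.04 and -0.06, not called. The average of its sets there was -0.02, not called. In Pfeiffer 3 others fell (-0.57, -0.24 and -0.23), and 1 fell in WSU-DLCL2 (-0.42). TPR, the coiled-coil protein that forms the basket's filaments, was called in no line, between -0.27 and 0.07, while another probe set fell in KARPAS-422 (-0.20) and HT (-0.32) and rose in SU-DHL-10 (0.25).

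The members have 76 probe sets in all, and 23 members have more than 1. Of the 57 calls, 36 had another tested probe set of the same gene to set beside them, in 55 comparisons. In 40 comparisons the other set moved in the same direction, with 19 of them called, and in 15 it moved in the opposite direction, with 0 called. In 26 further pairs of a line and a probe set, the other set was called where the brightest was not. When the probe sets of a gene were averaged, 31 of the 57 calls were kept, and 9 members were called in KARPAS-422 and 6 in WSU-DLCL2. Besides those named above, the calls of NUP93 and NUP205 were lost in each line that had them. NUP88 lost its calls in Pfeiffer and SU-DHL-6, and NUP43 and RAE1 lost theirs in WSU-DLCL2 and KARPAS-422. Calls were also lost for NUP133 in KARPAS-422, for NUP37, SEH1L and NUP214 in WSU-DLCL2, and for NUP160 in SU-DHL-6. The HT call of NUP85 was lost too, although NUP85 has 1 probe set and averaging left its own values unchanged.

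Further calls named above rest on single arrays. In Pfeiffer the call of NUP93 was lost without either DMSO array or without GSK126 replicate 2, that of GLE1 without either GSK126 array or without DMSO replicate 2, that of NUP54 without DMSO replicate 2 or GSK126 replicate 1, and that of NUP43 without DMSO replicate 1 or GSK126 replicate 2. In WSU-DLCL2 AHCTF1 was lost without either DMSO array or without GSK126 replicate 2, NUP153 without replicate 1 of either treatment, and NUP43 without DMSO replicate 1. In KARPAS-422 NUP43 and NDC1 were lost without DMSO replicate 1 or GSK126 replicate 2, NUP50 without replicate 1 of either treatment, NUP54 without DMSO replicate 2, NUP93 without GSK126 replicate 1 and NUP98 without GSK126 replicate 2. In SU-DHL-10 NUP153 was lost without either DMSO array or GSK126 replicate 1, and RANBP2 also without either GSK126 array. In SU-DHL-6 NUP88 was lost without either DMSO array or GSK126 replicate 1, and in HT NUP205 without any 1 array. The count in WSU-DLCL2 was 6 without DMSO replicate 1 or without GSK126 replicate 2, and in SU-DHL-10 it was 2 without replicate 1 of either treatment. In SU-DHL-6 it was 1 without DMSO replicate 1 and 2 without replicate 2 of either treatment, and in HT it was 1 without DMSO replicate 2 and 2 without any other array.

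Across lines, each line counted as 1 replicate. Over the 7 mutant lines, 5 members fell and 0 rose (16.7%), where 3.27% of all genes fell and 6.7% rose. NUP155 had the largest mean log2 change, -0.40 ± 0.07 (SE, 7 lines; limma, adjusted p = 0.00743), and was below 0 in 7 of 7 mutant lines. NUP37 averaged -0.26 ± 0.06 (adjusted p = 0.0189), NUP93 -0.23 ± 0.06 (adjusted p = 0.036), NUP153 -0.17 ± 0.05 (adjusted p = 0.042) and NUP43 -0.15 ± 0.04 (adjusted p = 0.0386). These are scaffold genes except NUP153 of the basket. The mutant mean was below 0 for 29 of 30 members, NUP214 being the exception at 0.09, against 40.9% of all genes, and 16 members had an unadjusted p under 0.05, against 26.5% of all genes. NUP188 (-0.20, adjusted p = 0.0514) and AHCTF1 (-0.21, adjusted p = 0.0548) lay next to the threshold.

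The call of NUP155 held without each line in turn and in every setting tried, with a mean between -0.54 and -0.35. That of NUP37 was lost without SU-DHL-10 (-0.22). Those of NUP93, NUP153 and NUP43 were each lost with quantile normalization, with the mean of all probe sets and without most single lines, wild type lines included, which share the estimate of the spread. The count of 5 fell to 2 without Pfeiffer, WSU-DLCL2, KARPAS-422, SU-DHL-6, HT, OCI-LY-19 or Toledo and to 1 without SU-DHL-10, and it was 21 with arrays set to equal medians. Equal medians also lowered the median of all genes in several lines.

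Over the 3 wild type lines limma called 0 members, with 0 at an unadjusted p under 0.05, and 0% of all genes were called. The wild type mean was below 0 for 28 of 30 members, with a median over members of -0.07, against -0.14 for the mutant mean. NUP160 had the lowest wild type mean, -0.29 ± 0.19 (mean of 3 lines, SE from the spread over all 10 lines), most of it from HT. The test of mutant minus wild type called 0 members, with 1 at an unadjusted p under 0.05, and 0% of all genes. That member was NUP37, with a difference of -0.23 ± 0.10 (unadjusted p = 0.0495, adjusted p = 0.991). NUP155 differed by -0.22 ± 0.13 (adjusted p = 0.991). No difference between the genotypes was thus shown for any member, and the 3 wild type lines, of which HT has a growth IC50 below that of 3 mutant lines, limit the precision.

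**Figure D4:**
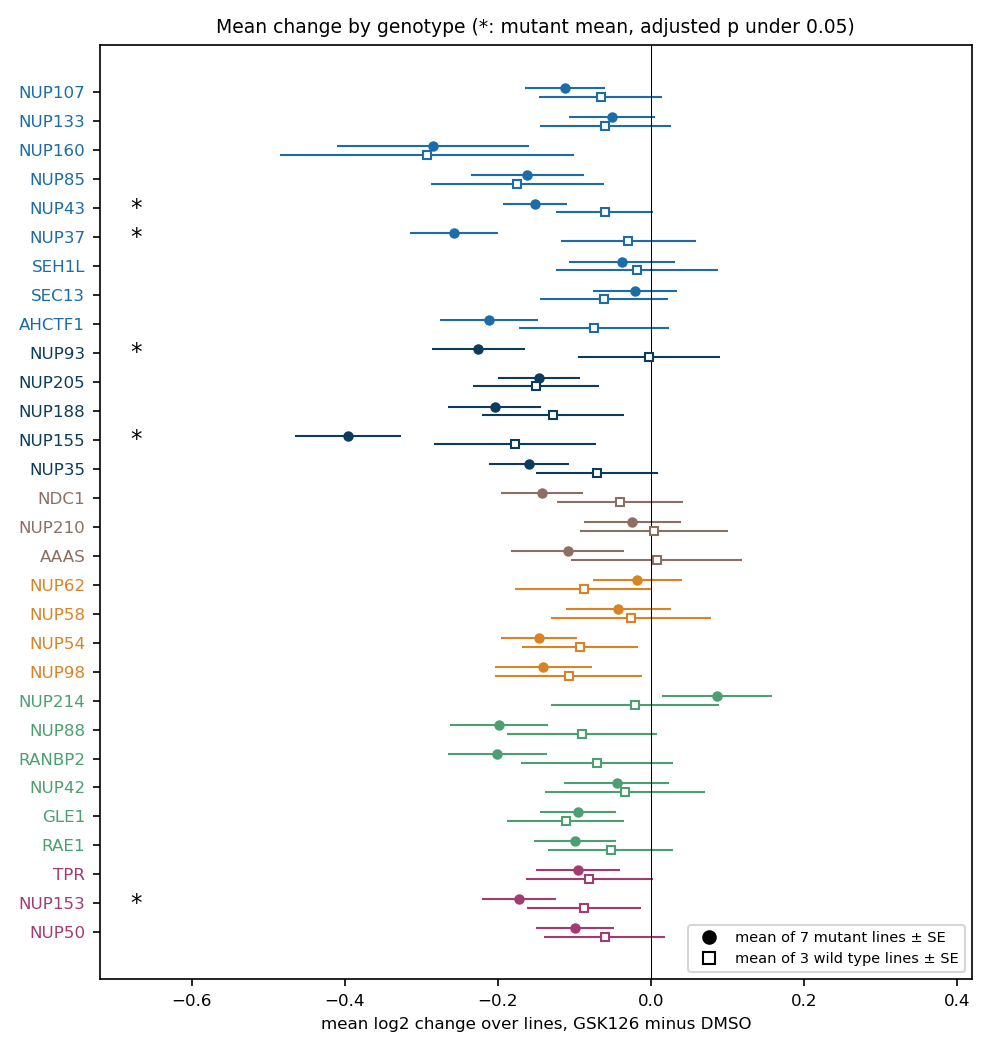
Mean log2 change, GSK126 minus DMSO, of each member over the 7 mutant lines (filled circles) and the 3 wild type lines (open squares), coloured by structural part. Bars are standard errors, from a spread estimated over all 10 lines. Stars mark the 5 members called for the mutant mean. The mutant means lie below 0 for 29 members, and the error bars of the genotypes overlap for most members.

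The slope of the log2 change on log10 of the growth IC50 was positive for 27 of 30 members, which means a lower value in more sensitive lines. Of all genes 0.00657% were called for the slope and 0 members were. In limma 7 members had an unadjusted p under 0.05, against 10.7% of all genes. The steepest slopes were those of NUP160, 0.30 ± 0.12 log2 units per 10-fold of IC50 (adjusted p = 0.403), NUP155, 0.21 ± 0.07 (adjusted p = 0.288), and NUP93, 0.18 ± 0.06 (adjusted p = 0.302). The lowest adjusted p was that of NUP35 (0.273), at a slope of 0.15 ± 0.04. The change itself differed between the 10 lines for 14 of 30 members by the F test, at a background of 38.8% of all genes. They were NUP107, NUP133, NUP160, NUP85, NUP37 and SEH1L of the outer ring, NUP93, NUP205 and NUP155 of the inner ring, NUP62 and NUP98 of the channel, NUP88 and RAE1 of the cytoplasmic side and NUP153 of the basket.

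Under DMSO the level of all 30 members differed between lines by more than the spread of replicate arrays (moderated F test in limma, adjusted p under 0.05), as it did for 84.6% of all genes. Levels were compared only within a probe set. The range over lines ran from 0.83 log2 units for AAAS to 1.95 for NUP160, a 3.88-fold range. NUP160 was highest in the wild type lines, at 11.69 ± 0.16 in Toledo, 11.47 ± 0.01 in OCI-LY-19 and 11.10 ± 0.11 in HT (SD, n = 2 each). Pfeiffer (10.81), KARPAS-422 (10.75), SU-DHL-6 (10.73) and SU-DHL-10 (10.43) followed, and neighbours among these overlapped. DB (10.05), SU-DHL-4 (9.85) and WSU-DLCL2 (9.73) were lowest, with arrays that likewise overlapped.

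NUP98 had a 3.85-fold range under DMSO, with Toledo (11.98 ± 0.10) and HT (11.96 ± 0.02) highest and not separate, then KARPAS-422 (11.72) and DB (11.68), which overlapped, WSU-DLCL2 (11.21), SU-DHL-10 (11.08), OCI-LY-19 (10.99) and SU-DHL-4 (10.87). SU-DHL-6 (10.54 ± 0.01) and Pfeiffer (10.03 ± 0.10) were lowest, and each stood apart from its neighbours. NUP35 was highest in HT (12.57 ± 0.11) and lowest in Toledo (10.68 ± 0.04), both wild type lines, a 3.69-fold range, with the other 8 lines between 11.49 and 12.15. NUP62 had a 3.03-fold range. OCI-LY-19 (12.54), Toledo (12.45), KARPAS-422 (12.44), SU-DHL-6 (12.43) and SU-DHL-10 (12.41) were highest and close together, followed by HT (12.13), Pfeiffer (11.81), SU-DHL-4 (11.47), DB (11.23) and WSU-DLCL2 (10.94 ± 0.11). These 4 genes thus order the lines differently.

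Between genotypes, limma called 0 members for the DMSO level, mutant minus wild type, with 4 at an unadjusted p under 0.05, and 0.0526% of all genes were called. NUP160 was lower in the mutant lines, with means of 10.34 in mutant and 11.42 in wild type lines, and no mutant line reached any wild type line (difference -1.08, unadjusted p = 0.0039, adjusted p = 0.482). NUP54 averaged 11.22 in mutant and 12.07 in wild type lines (unadjusted p = 0.00539, adjusted p = 0.488), and NUP133 11.09 in mutant and 11.62 in wild type lines (unadjusted p = 0.00677, adjusted p = 0.488). RANBP2 ran the other way, at 11.48 in mutant and 10.97 in wild type lines (unadjusted p = 0.0156, adjusted p = 0.547). None of these passed the adjustment over all genes.

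**Figure D5:**
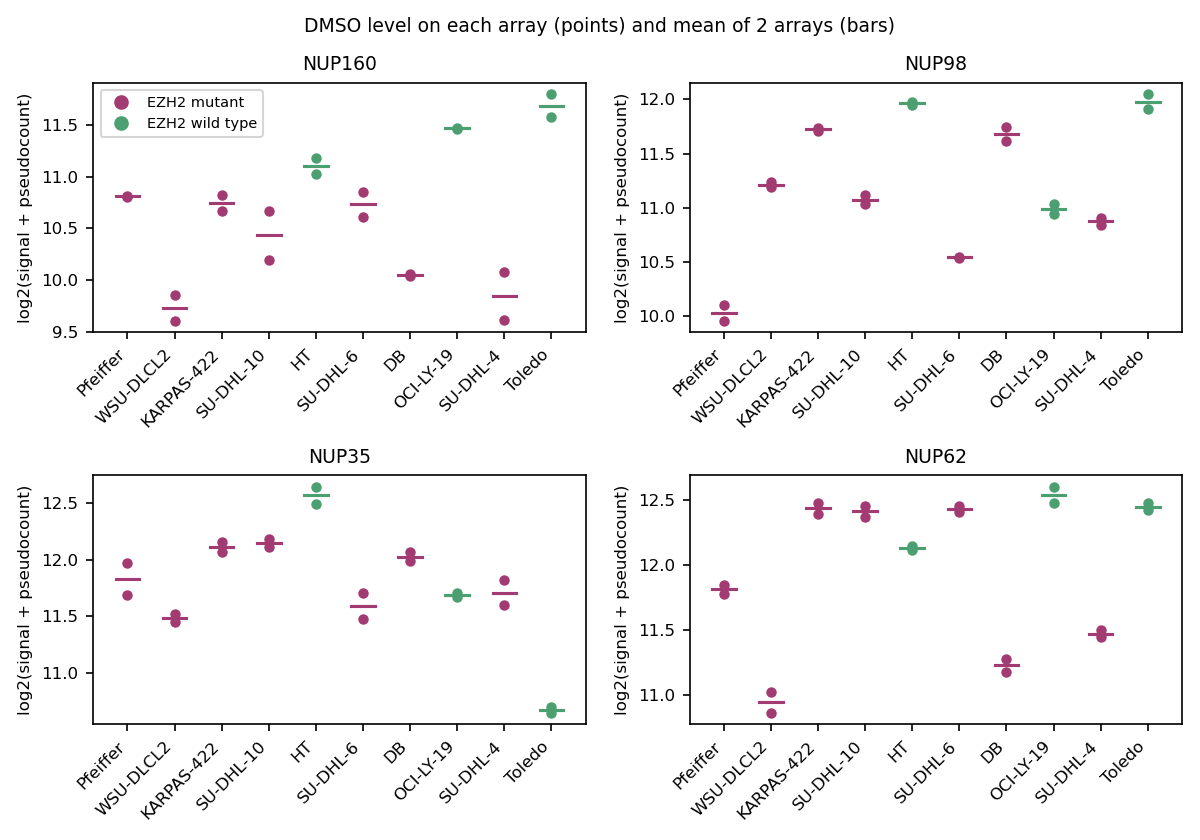
DMSO level of the 4 members with the widest range over lines, on each array (points, log2 of signal plus pseudocount) and as the mean of 2 arrays (bars), for mutant lines (purple) and wild type lines (green) by growth IC50 from low to high. NUP160 is highest in the 3 wild type lines, while NUP35 is highest in one wild type line (HT, 12.57) and lowest in another (Toledo, 10.68).

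Other genes of nuclear transport also fell more often than they rose. Of 450 pairs of such a gene and a line, 63 were fallen (14%) and 12 were risen (2.67%), with a share fallen of 18.6% for exportins, 18.6% for mRNA export genes, 15% for the Ran cycle, 13.5% for importins and 8% for other pore and envelope genes. The share over all pairs of a gene and a line was 5.13% fallen and 7.55% risen. Over the mutant lines 3 of 45 fell and 0 rose, where 3.27% of all genes fell and 6.7% rose. The genes with the lowest mutant means were DDX19B, an RNA helicase of mRNA export (-0.69, adjusted p = 0.0643), LMNB1, which encodes lamin B1 (-0.34, adjusted p = 0.203), and XPOT, the exportin for transfer RNA (-0.33, adjusted p = 0.0197). Of these XPOT fell in HT and in Pfeiffer, KARPAS-422, WSU-DLCL2 and SU-DHL-10, LMNB1 in Pfeiffer alone (-1.67) and DDX19B in KARPAS-422 alone (-2.26). The highest mutant means were those of POM121, which encodes a pore membrane protein with near-identical copies (0.27, adjusted p = 0.254), IPO11 (0.25, adjusted p = 0.67) and IPO4 (0.15, adjusted p = 0.43), both importins. POM121 rose in KARPAS-422 (1.16), and IPO4 rose in WSU-DLCL2 (0.81) and SU-DHL-10 (0.40) and fell in KARPAS-422 (-0.27).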

How the data were processed

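RNA of the 10 lines was hybridised to 40 Affymetrix arrays with 1 colour. RNA was extracted with Trizol and RNeasy, per the labels' protocols. The deposited values are log2 signals made with MAS5, per the submitters' processing notes, and its version is not stated in the sources read here. With 2% trimmed at each end, all 40 arrays had a linear mean of 500. Arrays scaled this way show changes relative to the other genes of an array, and dim probe sets scatter widely. The number of arrays limits the precision.

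The analysis used log2(linear signal + 17.72), a pseudocount equal to the median of the arrays' 25th percentiles. Fold changes on this scale understate those of dim genes. Symbols came from the platform annotation, which can be old. Genes were tested where their brightest single-symbol probe set exceeded the array median on 2 or more arrays. Of 54675 probe sets, 41091 had 1 symbol, 1801 several and 11721 none.

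Groups came from the labels, 20 groups of 2 arrays. Titles name biological replicates without saying how cultures were separated, so p-values within a line may measure technical spread. limma 3.58.1 in R 4.3.3 fitted 1 mean per group with moderated variances and an intensity trend (20 residual and 6.98 prior degrees of freedom). Across lines, 1 value per line entered limma. Tests were two-sided, with Benjamini-Hochberg adjustment over 15211 genes. The scripts were tested on simulated data.

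Same-numbered arrays did not deviate together (correlations of deviations from -0.045 to 0.069), and the numbers were not taken as pairs. The labels carry an R tag of unstated meaning, R8 for OCI-LY-19 and SU-DHL-6, R6 for Toledo, KARPAS-422 and Pfeiffer and R7 for the other 5 lines, which was tried as a block. All 30 members are accounted for. Those named per line are the up to 3 fallen and 3 risen of largest change, with array values for the members called in the most lines, with the largest fall and rise and in opposite directions. The members and lists were chosen with earlier results of these data known. NUTF2, NXF1, DDX39B and SENP2, among others listed, were not analysed here.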

Additional observations from a re-analysis of the deposited data

Results flagged for a closer look

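Among the 7 mutant lines, the log2 change of NUP160 under GSK126 stood far from the rest in Pfeiffer, at -1.16, against -0.46 to 0.05 in the other 6. The change of NUP35 likewise stood apart in Pfeiffer, at -0.43, against -0.16 to 0.01. The DMSO level of GLE1 stood apart in DB, at 10.07, against 10.53 to 10.83 in the other mutant lines. These are 3 gaps found in 60 sets of 7 lines, and chance gives about 1 in 20.

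The GSK126 change differed between the 10 lines for 14 of 30 members by the moderated F test in limma, as it did for 38.8% of all genes. The adjusted p was 0.000464 for NUP107, 0.000431 for NUP133, 0.000493 for NUP160, 0.00398 for NUP85, 0.00112 for NUP37 and 0.000395 for SEH1L of the outer ring. It was 0.0406 for NUP93, 0.00551 for NUP205 and 1.55e-06 for NUP155 of the inner ring. It was 0.0208 for NUP62 and 0.00206 for NUP98 of the channel, 0.00105 for NUP88 and 0.00281 for RAE1 of the cytoplasmic side, and 0.028 for NUP153 of the basket. This test covers all differences among lines, and the tests of genotype and of growth IC50 called none of these members.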

How the results depend on the processing

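Of the 57 calls of a member in a line, 57 were kept with pseudocount 64, 55 with pseudocount 1, 53 with no filter, 50 with quantile normalization, 50 with equal medians, 43 with each line fitted alone and 31 when all probe sets were averaged, where the change of NUP54 (0.11) and NUP153 (0.017) in KARPAS-422 turned positive. Leaving out 1 array kept 160 of 228. Setting arrays to equal medians moved the median of all genes by more than 0.1 log2 units in several lines, to -0.16 in WSU-DLCL2, -0.14 in SU-DHL-6 and -0.17 in SU-DHL-10, and called 20 members in WSU-DLCL2, 17 each in SU-DHL-6 and SU-DHL-10, 2 in HT, 0 in DB, 0 in SU-DHL-4 and 21 for the mutant mean, all fallen. In WSU-DLCL2 the median of the members was then -0.40, and in SU-DHL-10 -0.35. Quantile normalization called 2 for the mutant mean. With no filter SU-DHL-10 had 3. The mean of all probe sets called 6 in WSU-DLCL2, 9 in KARPAS-422 and 3 for the mutant mean. Each line fitted alone had 3 in SU-DHL-10 and 0 each in SU-DHL-4, DB and SU-DHL-6.

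The replicate block, entered although the numbers do not pair the arrays, called 0 in DB and 0 in SU-DHL-4. In the fit across lines it called 11 for the mutant mean and 1 for the slope. The share of all genes called in that fit is not given here, so its counts are not a result about the members. Leaving out 1 array gave 12 to 15 members in Pfeiffer, 6 to 10 in WSU-DLCL2, 14 to 15 in KARPAS-422, 2 to 4 in SU-DHL-10, 1 to 2 in HT, 1 to 3 in SU-DHL-6 and 0 in DB, SU-DHL-4, OCI-LY-19 and Toledo. Leaving out 1 line gave 1 to 6 for the mutant mean. The R tag block kept 4 of 5 calls for the mutant mean and gave 0 for the difference between genotypes. The count of 0 for the wild type mean, the difference and the DMSO difference stayed at 0 in every setting tried, and the DMSO level differed between lines for 29 or 30 members. Beyond fewer samples, genes or probe sets entering a fit, the cause was not tested. The F test of the change between lines and the reading of every probe set were added after seeing the data. The number of arrays limits small changes, and dim second probe sets are the least precise.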
